A study of Mus musculus with 167 samples.

Results

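The Gadd45 family of stress genes, Gadd45b, Gadd45a and Gadd45g, was followed in mouse liver through a long phenobarbital treatment and its withdrawal. The probe sets annotated to each of the 3 genes were taken from the deposited array values, and the one with the highest mean over all arrays stood for the gene, so that the family made up 3 of the 18194 genes with a single symbol. All 3 were among the 12622 genes bright enough to be tested. The study held 167 livers, each on 1 array, from male C57BL/6 mice, 9 to 11 weeks old at the start. The treated mice drank phenobarbital in water at 0.05% (wt/vol) for 13 weeks and then plain water for 4 weeks. Treated and control livers were collected after 1, 7, 14, 28 and 91 days of dosing, and at the end of the recovery (day 119). Treated groups were human CAR/PXR mice (27 animals), CAR/PXR knock-out mice (28) and wild-type mice (29), and the control groups given no phenobarbital were human CAR/PXR (29), knock-out (27) and wild-type (27). The human CAR/PXR mice are labelled humanized (CARh and PXRh), and the knock-out mice lack both receptors (CARKO and PXRKO). What drives the human genes is not given in the sources used here. Each combination of genotype, treatment and day held 3 to 5 livers. The comparisons ask whether the 3 genes respond to phenobarbital, whether the response needs CAR and PXR or takes place with the human receptors, and whether it lasts.

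Gadd45 proteins are small nuclear proteins with no enzymatic activity of their own. They bind MTK1 (gene Map3k4) and so switch on the p38 and JNK kinases, bind the replication clamp PCNA, the cell cycle inhibitor p21 and the mitotic kinase CDK1, and bring DNA repair enzymes to methylated promoters. Gadd45a is a classical p53 target raised by DNA damage, Gadd45b is raised by NF-kB and TGF-beta signalling and in regenerating liver, and Gadd45g by cytokines. In mouse liver Gadd45b is known as an early gene of CAR, the nuclear receptor that phenobarbital activates, and its protein binds CAR and holds back the JNK kinase MKK7 (gene Map2k7).

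The 3 genes lie on different chromosomes: Gadd45b at chr10:80930091-80932204, Gadd45a at chr6:67035096-67037407 and Gadd45g at chr13:51846675-51848475 (GRCm38.p6, RefSeq). Their promoters are shown as a description, and no link between their letters and the responses was tested. Each stretch is the 200 bases before the RefSeq gene start, read 5′ to 3′ on the gene's own strand, and capitals mark the E-box letters CACGTG, the CAAT-box letters CCAAT and the TATA-box letters TATAAA.
Gadd45b, chr10:80929891-80930090, plus strand: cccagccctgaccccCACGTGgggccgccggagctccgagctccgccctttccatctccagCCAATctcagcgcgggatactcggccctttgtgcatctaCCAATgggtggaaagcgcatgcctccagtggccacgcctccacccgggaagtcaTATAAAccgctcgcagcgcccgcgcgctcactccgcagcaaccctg
Gadd45a, chr6:67037408-67037607, minus strand: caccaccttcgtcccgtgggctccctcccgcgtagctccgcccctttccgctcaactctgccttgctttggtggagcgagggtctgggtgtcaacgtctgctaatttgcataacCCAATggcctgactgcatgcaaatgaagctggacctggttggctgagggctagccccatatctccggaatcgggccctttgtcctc
Gadd45g, chr13:51846475-51846674, plus strand: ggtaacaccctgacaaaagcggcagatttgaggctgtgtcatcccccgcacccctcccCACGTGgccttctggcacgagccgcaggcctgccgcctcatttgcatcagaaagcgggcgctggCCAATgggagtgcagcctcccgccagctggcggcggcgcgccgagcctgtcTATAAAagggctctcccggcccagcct
These stretches have a GC content of 66.5% in Gadd45b, 59.5% in Gadd45a and 66.5% in Gadd45g, with 18, 10 and 15 CG dinucleotides in that order. The motif search ran over both strands from 250 bases before to 50 after the start, and over 32851 RefSeq promoters of the same length. Gadd45b holds CACGTG, whose first base lies at −185 from the gene start, CCAAT at −139 and −100, and TATAAA at −46. Gadd45g holds the same 3 kinds of letters, with CACGTG at −142, CCAAT at −78 and TATAAA at −27. Gadd45a holds CCAAT at −86 and neither of the others. Of all promoters, 7.15% hold the E-box, 37.4% the CAAT-box and 13.6% the TATA-box letters. The receptor half-site AGGTCA, its variant form AGTTCA, a pair of them as a direct repeat 4 bases apart, and the kappaB motif are in none of the 3 windows, against 16.3%, 14%, 0.0274% and 8.46% of all promoters. These matches describe letters and say nothing about binding.

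The labels were checked against the targeted receptors and Cyp2b10, the classical CAR target. Over the dosing days, mouse Nr1i3 (CAR) lay at 4.67 to 5.46 in human CAR/PXR and knock-out livers together and at 7.74 to 8.87 in wild-type livers, and Nr1i2 (PXR) at 3.33 to 4.08 against 6.91 to 8.02. Cyp2b10 had a median of 12.76 in treated and 7.92 in control human CAR/PXR livers, of 5.62 and 5.35 in knock-out livers, and of 13.01 and 6.45 in wild-type livers. All levels are log2 values. The 2 arrays of treated human CAR/PXR animals 6026 and 6030 on day 119 were nearly identical and were counted as 1 sample, so that 166 samples were fitted. The arrays of treated knock-out animals 4019 (day 28) and 4024 (day 91) were equally alike under different labels. Both were kept, and some of the knock-out results are also given without them. Pancreas acinar genes varied widely. The mean of 8 markers lay between 5.34 and 12.64, and above 7 in 29 samples, 14 treated and 15 control. Between animals of a group, this mean had correlations of r = −0.16 for Gadd45b, −0.04 for Gadd45a and −0.01 for Gadd45g over 166 samples. Each result was also computed without these 29 samples, which left as few as 1 sample in a group, assumed to vary like the others. The 8 hepatocyte markers had a mean between 13.17 and 13.58 in every sample. In whole liver, fewer cells of a type and less RNA per cell cannot be told apart.

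Gadd45b rose with phenobarbital on every dosing day in human CAR/PXR and in wild-type livers and did not pass the test in knock-out livers on any day. Averaged over the 5 dosing days it was 2.31-fold higher in human CAR/PXR livers and 2.32-fold higher in wild-type livers. After 4 weeks of withdrawal the treated livers were back among the controls.

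**Figure D1:**
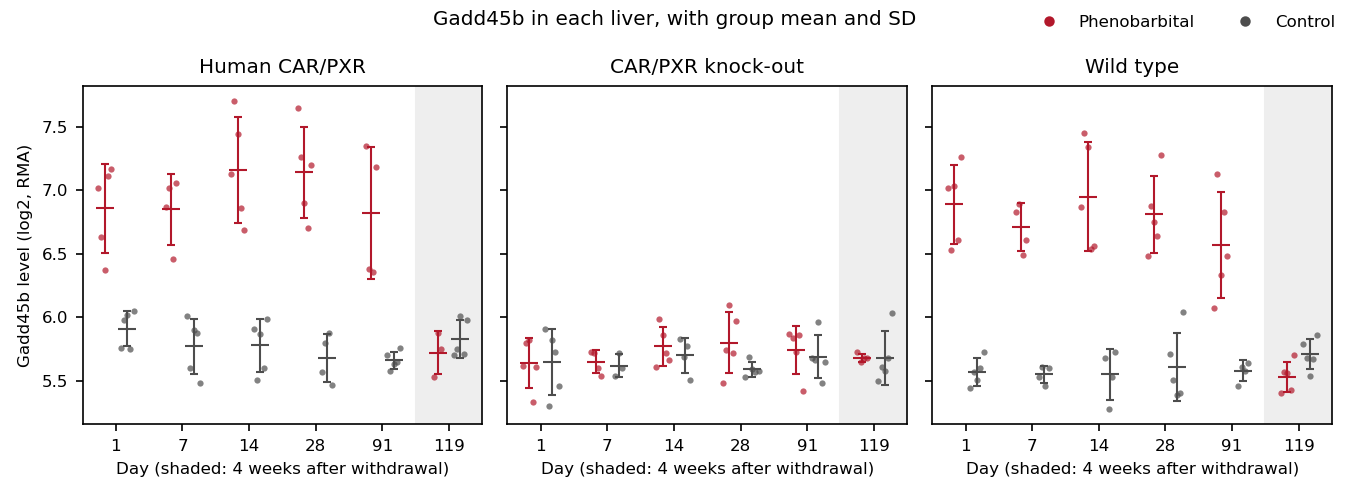
Gadd45b level (log2) in each liver by day for human CAR/PXR, knock-out and wild-type mice, with phenobarbital (red) left of control (grey). Bars give the group mean and SD. Treated human CAR/PXR and wild-type livers lie at 6.07 to 7.70 on the dosing days and their controls at 5.28 to 6.05, while the knock-out points mix.

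On day 1, human CAR/PXR livers had 7.02, 6.63, 6.37, 7.11 and 7.17 with phenobarbital and 5.76, 5.98, 6.02, 5.75 and 6.05 without it. The day 7 levels of these mice were 6.87, 7.02, 6.46 and 7.06 with phenobarbital and 6.01, 5.60, 5.90, 5.88 and 5.48 without it. On day 14, human CAR/PXR livers had 7.13, 7.70, 7.44, 6.86 and 6.69 with phenobarbital and 5.91, 5.51, 5.87, 5.60 and 5.99 without it. On each of these days the lowest treated liver lay above the highest control. The day 28 levels were 7.65, 7.26, 6.90, 6.70 and 7.20 with phenobarbital and 5.57, 5.80, 5.88 and 5.47 without it. At the end of dosing, on day 91, they were 7.35, 6.38, 6.36 and 7.18 with phenobarbital and 5.70, 5.58, 5.63, 5.65 and 5.76 without it. Again no treated liver overlapped the controls, so that all 23 treated human CAR/PXR livers stood above every control of their own day. The treated minus control difference was 0.94 ± 0.15 on day 1, 1.08 ± 0.16 on day 7 and 1.39 ± 0.15 on day 14 (log2, SE). It was 1.46 ± 0.16 on day 28 and 1.16 ± 0.16 on day 91. All 5 were called, that is, their p-value adjusted over all genes was under 0.05, the highest being 1.83e-06. Over the same 5 days, in order, 11.7%, 4.84%, 11.9%, 7.7% and 2.19% of all genes tested were called.

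In knock-out livers Gadd45b did not separate by treatment. The lowest, median and highest of 24 treated livers over the dosing days were 5.33, 5.73 and 6.10, and those of 22 controls were 5.30, 5.65 and 5.96. The differences ran from −0.01 on day 1 to 0.21 ± 0.15 on day 28, and none of the 5 was called. On day 28, 4 of 5 treated livers (5.48, 5.74, 6.10, 5.72 and 5.97) were above all 5 controls (5.53, 5.69, 5.59, 5.57 and 5.58) and the remaining one was below them (adjusted p = 0.494). Of all genes, 8.08%, 0.0158%, 0.325%, 5.16% and 3.45% were called in knock-out livers over the 5 days in order. Without animals 4019 and 4024 the day 28 difference was 0.23 (adjusted p = 0.475).

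On day 1, wild-type livers had 7.02, 6.53, 7.03, 6.61 and 7.26 with phenobarbital and 5.44, 5.57, 5.51, 5.60 and 5.73 without it. The day 7 levels of wild-type livers were 6.83, 6.89, 6.49 and 6.61 with phenobarbital and 5.53, 5.61, 5.46 and 5.60 without it. On day 14, wild-type livers had 6.87, 7.45, 7.34, 6.54 and 6.56 with phenobarbital and 5.68, 5.28, 5.53 and 5.73 without it. Treated and control livers were apart on each of these days. The day 28 levels were 6.48, 6.88, 6.75, 6.64 and 7.28 with phenobarbital and 5.71, 5.51, 5.39, 5.40 and 6.04 without it. On day 91 they were 6.07, 7.13, 6.33, 6.83 and 6.48 with phenobarbital and 5.46, 5.61, 5.58 and 5.64 without it. The lowest treated wild-type liver of the dosing period, animal 2021 at 6.07, lay above the highest control, animal 1020 at 6.04, and all 24 treated livers were above the controls of their day. The differences were 1.32 ± 0.15 on day 1, 1.15 ± 0.17 on day 7 and 1.40 ± 0.16 on day 14 (log2, SE). They were 1.20 ± 0.15 on day 28 and 0.99 ± 0.16 on day 91, all called, with adjusted p = 2.34e-06 at most. In wild-type livers 12%, 2.72%, 8.79%, 5.55% and 2.13% of all genes were called over these days in order.

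Averaged over the dosing days, the Gadd45b difference was 1.21 ± 0.07 (SE, adjusted p = 7.83e-33) in human CAR/PXR livers, 0.07 ± 0.07 (SE, adjusted p = 0.531) in knock-out livers and 1.21 ± 0.07 (SE, adjusted p = 1.06e-32) in wild-type livers. Of all genes 32.4%, 19.6% and 31.5% were called in the same 3 averages. By the size of its rise, Gadd45b ranked number 24 of the 12622 genes in human CAR/PXR livers and number 32 in wild-type livers. The human CAR/PXR response differed from the wild-type one by −0.01 log2 (95% interval −0.20 to 0.19, adjusted p = 0.994), against 1.88% of all genes called. Taken as wild type minus knock-out, the difference of responses was 1.14 ± 0.10 (SE, adjusted p = 1.48e-18), with 13.4% of genes called. Human CAR/PXR minus knock-out gave 1.14 ± 0.10 (SE, adjusted p = 1.92e-18), with 10.1% called. Cyp2b10, by contrast, rose less in human CAR/PXR livers (4.71 ± 0.09) than in wild-type livers (6.50 ± 0.09), a difference of −1.79 ± 0.13 (adjusted p = 5.13e-25). Its median levels in human CAR/PXR and wild-type livers were 12.76 and 13.01 with phenobarbital, and 7.92 and 6.45 without it.

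In order, the mean Gadd45b levels over the dosing days were 6.98 ± 0.39 (SD, n = 23) in treated human CAR/PXR livers, 6.79 ± 0.34 (SD, n = 24) in treated wild-type livers, 5.76 ± 0.18 (SD, n = 24) in human CAR/PXR controls, 5.72 ± 0.18 (SD, n = 24) in treated knock-out livers, 5.65 ± 0.15 (SD, n = 22) in knock-out controls and 5.57 ± 0.16 (SD, n = 22) in wild-type controls. The 2 highest differed from each other by less than their SD, and so did each pair of neighbours among the 4 lowest, while the gap between the treated wild-type livers and the human CAR/PXR controls was larger than either SD. Without phenobarbital, over all 6 days, human CAR/PXR controls exceeded wild-type controls by 0.18 ± 0.06 (SE, adjusted p = 0.029), with 28% of genes called. Without the 29 samples with high acinar markers this was 0.15 (adjusted p = 0.214), and it also lost its call without control animals 1006 and 5006 (0.17, adjusted p = 0.0512), 1008 and 5008 (0.17, 0.0519), 1012 and 5011 (0.16, 0.0656), 1017 and 5015 (0.16, 0.0534) or 1019 and 5017 (0.16, 0.058). Knock-out controls differed from wild-type controls by 0.06 ± 0.07 (SE, adjusted p = 0.571), with 22.4% of genes called.

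No change of the Gadd45b response during dosing passed the test. A moderated F test for a change of the treated minus control difference over the 5 dosing days gave adjusted p = 0.569 in human CAR/PXR, 0.96 in knock-out and 0.925 in wild-type livers for Gadd45b, and called 1.35%, 0.753% and 0.586% of all genes. On day 119, human CAR/PXR livers had 5.53, 5.88 and 5.75 after phenobarbital, the lowest being the averaged pair, and 5.70, 5.75, 6.01, 5.71 and 5.98 in controls. Knock-out livers had 5.73, 5.65, 5.68 and 5.68 after phenobarbital and 5.50, 5.61, 5.58, 5.68 and 6.03 in controls. Wild-type livers had 5.40, 5.57, 5.56, 5.43 and 5.70 after phenobarbital and 5.79, 5.68, 5.54, 5.67 and 5.86 in controls. In every genotype the groups overlapped, and in wild-type livers 2 of 5 treated animals were below all controls. The differences were −0.11 ± 0.18 (SE, adjusted p = 0.887), 0.00 ± 0.16 (SE, adjusted p = 0.998) and −0.18 ± 0.15 (SE, adjusted p = 0.999) in human CAR/PXR, knock-out and wild-type livers, and 0.214%, 0.111% and 0.0238% of genes were called. The day 119 difference was set against that of day 91, a change of −1.27 ± 0.24 (SE, adjusted p = 0.000137) in human CAR/PXR and −1.17 ± 0.22 (SE, adjusted p = 0.000235) in wild-type livers, both called. In knock-out livers this change was −0.05 ± 0.22 (SE, adjusted p = 0.97). The corresponding percentages of all genes called were 1.56, 0.666 and 0.0555.

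These Gadd45b values come from the brightest of its 3 probe sets, which lay above the array's own median on 167 of 167 arrays. A second probe set gave mean differences of 1.13 in human CAR/PXR, 0.09 in knock-out and 1.17 in wild-type livers (adjusted p = 2.78e-20, 0.562 and 3.77e-21). It lay above the array median on 90 of 167 arrays. The dimmest probe set spanned only 4.81 to 5.83 over all arrays. It gave 0.12 in human CAR/PXR (adjusted p = 0.0485), 0.06 in knock-out (0.426) and 0.11 in wild-type livers (0.0714), and neither difference from knock-out passed with it, at 0.06 for human CAR/PXR (0.691) and 0.05 for wild type (0.719). With the second probe set the change between days 91 and 119 in human CAR/PXR livers was −1.02 and lost its call (adjusted p = 0.0845), and human CAR/PXR minus wild-type controls was 0.17 (0.148), not called either.

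Some markers of other cells moved with the same genotypes as Gadd45b. Ighm, the heavy chain gene of immunoglobulin M made by B and plasma cells, rose by 1.47 ± 0.19 in human CAR/PXR and 1.64 ± 0.19 in wild-type livers and stood at 0.31 ± 0.19 in knock-out livers (SE, adjusted p = 7.52e-11, 1.52e-12 and 0.261). Its wild-type minus knock-out difference was 1.33 ± 0.27 (adjusted p = 0.000114). It was the 1 of 3 tested B and plasma cell markers that passed. The B cell surface gene Ms4a1 stood at −0.07 ± 0.09, −0.02 ± 0.09 and 0.12 ± 0.09 in human CAR/PXR, knock-out and wild-type livers, and Jchain, of the antibody joining chain, at −0.13 ± 0.16, −0.08 ± 0.16 and −0.18 ± 0.16. The mean of the 3 ran from 6.23 to 7.42 in treated and 5.86 to 6.98 in control human CAR/PXR livers, from 5.80 to 7.48 and 5.66 to 6.99 in knock-out livers, and from 5.90 to 7.15 and 5.32 to 6.73 in wild-type livers. Between animals of a group it had r = −0.05 with Gadd45b. The stellate marker Lrat, which makes retinyl esters, was at −0.77 ± 0.12 in human CAR/PXR, 0.18 ± 0.12 in knock-out and −0.50 ± 0.12 in wild-type livers. Reln (−0.15 and −0.19) and Dcn (−0.24 and −0.22) fell less in human CAR/PXR and wild-type livers, and Colec11 (−0.12) in wild-type livers. Col1a1 (0.09 and 0.10) and Col3a1 (0.20 and 0.11) were above 0 in these 2 genotypes and not called. Of all genes 17.5%, 11% and 19.7% were called lower in human CAR/PXR, knock-out and wild-type livers. Of the 8 stellate cell markers 3 fell in human CAR/PXR, 0 in knock-out and 4 in wild-type livers. Their mean ran from 7.87 to 8.34 in treated and 7.90 to 8.46 in control human CAR/PXR livers, from 8.10 to 8.50 and 7.99 to 8.52 in knock-out livers, and from 7.94 to 8.32 and 7.97 to 8.56 in wild-type livers, and it had r = −0.14 with Gadd45b between animals. The part of these cells in the Gadd45b result was not tested.

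Gadd45a, the p53-responsive member, rose with phenobarbital in wild-type livers, by 1.92-fold on average over the dosing days, and its smaller differences in human CAR/PXR livers did not pass. Its average difference in knock-out livers was near 0. Control livers of both engineered genotypes had more Gadd45a than wild-type controls, in comparisons that called 28% (human CAR/PXR) and 22.4% (knock-out) of all genes.

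**Figure D2:**
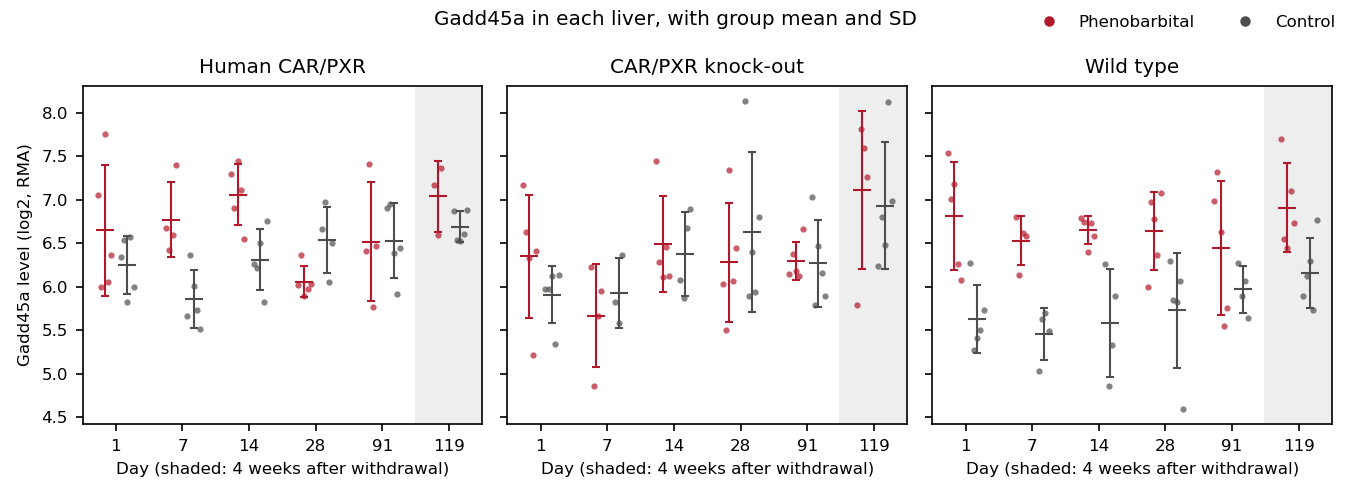
Gadd45a level (log2) in each liver by day for human CAR/PXR, knock-out and wild-type mice, with phenobarbital (red) left of control (grey). Bars give the group mean and SD. Over the dosing days wild-type controls lie at 4.60 to 6.30 and human CAR/PXR controls at 5.52 to 6.97.

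In human CAR/PXR livers, day 7 levels were 6.67, 6.42, 6.60 and 7.40 with phenobarbital and 5.67, 6.37, 6.01, 5.73 and 5.52 without it, with no overlap. Day 14 levels were 7.30, 6.90, 7.44, 7.11 and 6.55 in treated and 6.26, 6.22, 6.50, 5.83 and 6.76 in control livers, and 4 of 5 treated livers were above all controls. On day 28 the order was the opposite, with 6.02, 6.36, 5.90, 5.97 and 6.03 in treated and 6.66, 6.97, 6.05 and 6.50 in control livers, 4 of 5 treated being below all controls. The differences were 0.39 ± 0.32, 0.91 ± 0.34, 0.75 ± 0.32, −0.49 ± 0.34 and −0.01 ± 0.34 over the 5 dosing days in order (log2, SE), none called. When only the arrays of the compared groups were fitted, days 7 and 14 passed (adjusted p = 0.0381 and 0.0399). The mean over dosing days was 0.31 ± 0.15 (SE, adjusted p = 0.104). In knock-out livers the lowest, median and highest levels over the dosing days were 4.86, 6.20 and 7.44 with phenobarbital and 5.34, 6.11 and 8.13 without it. The daily differences there lay between −0.35 and 0.44, none called, and the mean was 0.00 ± 0.15 (SE, adjusted p = 0.991).

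In wild-type livers, day 1 levels were 7.54, 7.01, 7.18, 6.26 and 6.08 with phenobarbital and 6.27, 5.27, 5.41, 5.50 and 5.73 without it, and 3 of 5 treated livers were above all controls. Day 7 levels were 6.80, 6.14, 6.62 and 6.58 in treated and 5.03, 5.63, 5.70 and 5.49 in control livers. Day 14 levels were 6.79, 6.75, 6.40, 6.73 and 6.58 in treated and 6.26, 4.86, 5.33 and 5.90 in control livers. On both of these days the groups did not overlap. On day 28 the levels were 6.00, 6.97, 6.78, 6.37 and 7.08 with phenobarbital and 6.30, 5.85, 5.83, 6.07 and 4.60 without it. On day 91 they were 6.98, 7.32, 6.63, 5.55 and 5.76 with phenobarbital and 6.27, 5.90, 6.07 and 5.64 without it, with overlap on both days. The differences of days 1 and 14 were called, at 1.18 ± 0.32 (SE, adjusted p = 0.00728) and 1.06 ± 0.34 (SE, adjusted p = 0.0356). Those of days 7, 28 and 91 were not, at 1.07 ± 0.36, 0.90 ± 0.32 and 0.48 ± 0.34 (adjusted p = 0.095, 0.086 and 0.57). Of all genes 12%, 2.72%, 8.79%, 5.55% and 2.13% were called in wild-type livers on days 1, 7, 14, 28 and 91. Day 7 passed with only the compared arrays fitted (1.07, adjusted p = 0.00852) and with array weights (1.11, 0.0155). An F test for a change over the dosing days did not pass (adjusted p = 0.349 in human CAR/PXR, 0.786 in knock-out and 0.97 in wild-type livers). The day 14 call was lost without animal 1012 (0.82, adjusted p = 0.175), 1013 (0.98, 0.108), 2011 (1.03, 0.066), 2012 (1.04, 0.0681), 2014 (1.05, 0.0532) or 2015 (1.08, 0.0504). Without the 29 samples with high acinar markers, day 1 was 1.43 (adjusted p = 0.439) and day 14 was 1.03 (0.2), neither called. Day 28 passed without animal 2016 (1.07, adjusted p = 0.0494). Each refit without a named wild-type animal also left out an animal of each other genotype. A changed call therefore cannot be assigned to the named animal alone.

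The mean wild-type difference, 0.94 ± 0.15 (SE, adjusted p = 2.09e-07), held without those samples (1.03, adjusted p = 2.23e-05). The wild-type average called 31.5% of all genes. Taken as wild type minus knock-out, the responses of Gadd45a differed by 0.94 ± 0.22 (SE, adjusted p = 0.000706), with 13.4% of genes called. Human CAR/PXR minus knock-out gave 0.32 ± 0.21 (SE, adjusted p = 0.418) and human CAR/PXR minus wild type −0.63 ± 0.21 (SE, adjusted p = 0.108), with a 95% interval of −1.05 to −0.21. The last of these passed with array weights (−0.68, adjusted p = 0.0397) and without animals 2005 and 6003 (−0.72, 0.0477) or 2024 and 6022 (−0.73, 0.045). In absolute levels the treated livers averaged 6.61 ± 0.58 (SD, n = 23) in human CAR/PXR and 6.62 ± 0.49 (SD, n = 24) in wild-type livers, and the controls averaged 6.29 ± 0.42 (SD, n = 24) and 5.68 ± 0.47 (SD, n = 22). Treated knock-out livers averaged 6.24 ± 0.59 (SD, n = 24), and knock-out controls 6.24 ± 0.60 (SD, n = 22). Over all 6 days, human CAR/PXR controls exceeded wild-type controls by 0.61 ± 0.14 (SE, adjusted p = 0.000289) and knock-out controls exceeded them by 0.58 ± 0.14 (SE, adjusted p = 0.000906). Of all genes 28% and 22.4% were called, in either direction, in these 2 comparisons. On day 119 the Gadd45a differences were 0.36 ± 0.37 in human CAR/PXR, 0.19 ± 0.34 in knock-out and 0.74 ± 0.32 in wild-type livers, none called (adjusted p = 0.809, 0.965 and 0.999). In wild-type livers 7.70, 6.55, 6.45, 7.10 and 6.73 after phenobarbital stood beside 5.89, 6.12, 6.30, 5.73 and 6.77 in controls, with 2 of 5 treated above all controls. The change of the difference between day 91 and day 119 did not pass in any genotype (adjusted p = 0.873 at least).

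Gadd45g, the cytokine-responsive member, did not follow the Gadd45b pattern. Its average difference over the dosing days was negative in knock-out livers, where it was called, and did not pass in the other genotypes. It also varied far more between animals. Its levels spanned 5.01 to 10.41, a 42.3-fold range, against an 11.5-fold range for Gadd45a and a 5.36-fold range for Gadd45b. Within groups its residual SD was 1.05, larger than that of 99.78% of genes, against 0.52 for Gadd45a (98.92%), 0.24 for Gadd45b (92.67%) and 0.13 for the median gene.

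**Figure D3:**
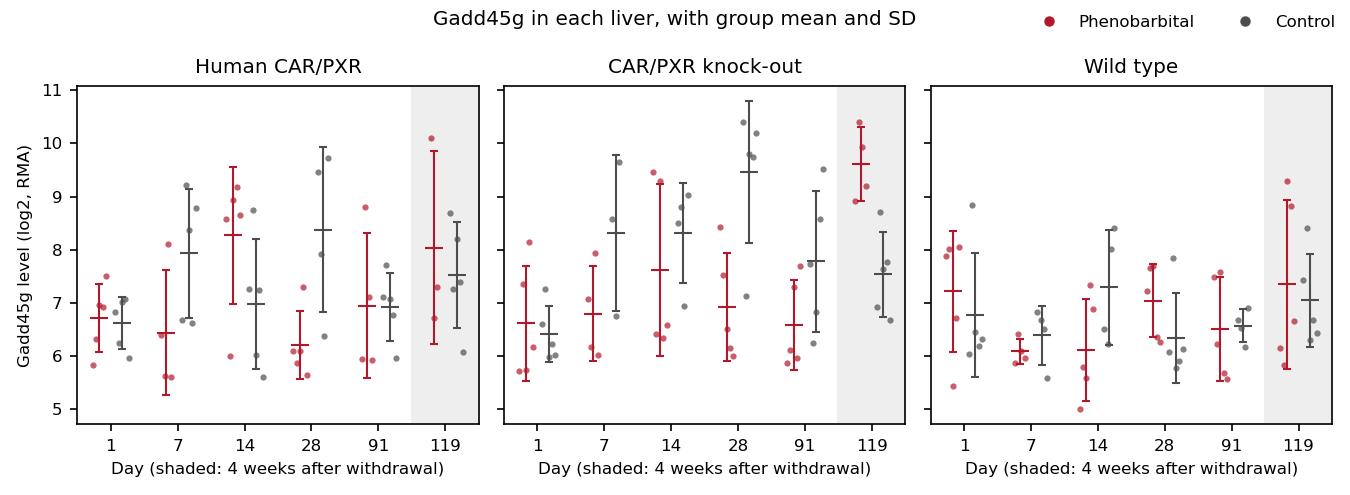
Gadd45g level (log2) in each liver by day for human CAR/PXR, knock-out and wild-type mice, with phenobarbital (red) left of control (grey). Bars give the group mean and SD. Knock-out controls reach 10.41 on day 28, where treated knock-out livers lie at 6.01 to 8.42, and the order is the opposite on day 119.

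The mean difference was −0.46 ± 0.30 (SE, adjusted p = 0.261) in human CAR/PXR livers, −1.15 ± 0.31 (SE, adjusted p = 0.00384) in knock-out livers and −0.08 ± 0.31 (SE, adjusted p = 0.882) in wild-type livers. Of all genes 32.4%, 19.6% and 31.5% were called in these averages. Without animals 4019 and 4024 the knock-out value was −1.08 (adjusted p = 0.00933), and without the 29 samples with high acinar markers −1.12 (0.0169). Taken as wild type minus knock-out, the responses differed by 1.07 ± 0.44 (SE, adjusted p = 0.0905), which did not pass. It passed without animals 1007 and 3009 (1.25, adjusted p = 0.0479) or 2011 and 4011 (1.22, 0.044). Human CAR/PXR minus knock-out gave 0.69 ± 0.43 (SE, adjusted p = 0.361), and human CAR/PXR minus wild type −0.38 ± 0.43 (SE, adjusted p = 0.779). No difference between genotypes in the Gadd45g response passed in the fit of all samples.

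Day 28 was the only day called, and in both engineered genotypes. Of all genes 7.7% were called on that day in human CAR/PXR and 5.16% in knock-out livers. In human CAR/PXR livers Gadd45g was at 6.10, 5.87, 6.10, 7.30 and 5.64 with phenobarbital and at 9.47, 7.92, 6.38 and 9.73 without it, a difference of −2.17 ± 0.69 (SE, adjusted p = 0.0331). In knock-out livers it was at 8.42, 7.52, 6.50, 6.15 and 6.01 with phenobarbital and at 10.41, 7.13, 9.80, 9.74 and 10.20 without it, a difference of −2.54 ± 0.65 (SE, adjusted p = 0.00981). In both genotypes 1 control lay inside the treated range, animal 5018 at 6.38 and animal 3017 at 7.13. Wild-type livers on that day had 7.22, 7.65, 7.70, 6.35 and 6.27 with phenobarbital and 6.07, 7.84, 5.78, 5.90 and 6.13 without it, a difference of 0.69 ± 0.65 (SE, adjusted p = 0.655). The knock-out difference was −2.34 (adjusted p = 0.0309) without animals 4019 and 4024. It was −2.46 (0.0297) without the 29 samples with high acinar markers, and with only the compared arrays fitted its adjusted p was 0.0843. The human CAR/PXR call was lost with only the compared arrays (adjusted p = 0.0873), without the acinar-high samples (−2.09, 0.0876), and without any of animals 5016 (−1.81, 0.157), 5017 (−2.33, 0.0544), 5019 (−1.72, 0.151), 6016 (−2.15, 0.0638), 6017 (−2.09, 0.0731), 6018 (−2.15, 0.0541) or 6020 (−2.04, 0.0664).

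On the other dosing days the differences in human CAR/PXR livers were 0.09 ± 0.65, −1.50 ± 0.69, 1.29 ± 0.65 and 0.02 ± 0.69, for days 1, 7, 14 and 91. The day 14 group held 8.57, 6.00, 8.93, 9.18 and 8.66 with phenobarbital and 7.26, 8.75, 6.02, 7.24 and 5.61 without it, so that 1 treated animal, 6012, stood far below the other treated livers. In knock-out livers they were 0.20 ± 0.65, −1.52 ± 0.79, −0.70 ± 0.69 and −1.19 ± 0.65 on the same days. In wild-type livers they were 0.45 ± 0.65, −0.30 ± 0.73, −1.16 ± 0.69 and −0.06 ± 0.69. None was called, and treated and control livers overlapped on every dosing day in each genotype. The F test for a change over dosing days gave adjusted p = 0.13 in human CAR/PXR, 0.378 in knock-out and 0.906 in wild-type livers.

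After the recovery, Gadd45g in knock-out livers was at 8.91, 10.41, 9.93 and 9.19 with earlier phenobarbital and at 6.92, 8.71, 7.63, 7.76 and 6.67 in controls, with no overlap. The difference was 2.07 ± 0.69 (SE, adjusted p = 0.325) and did not pass. The change from the day 91 difference, 3.26 ± 0.95 (SE, adjusted p = 0.156), was by size the highest of all 12622 genes in this comparison and did not pass either. The residual SD of Gadd45g was larger than that of 99.78% of genes, and a rank by size takes no account of it. Day 119 differences were 0.51 ± 0.76 (SE, adjusted p = 0.875) in human CAR/PXR and 0.30 ± 0.65 (SE, adjusted p = 0.999) in wild-type livers, with treated and control livers overlapping in both. Gadd45g also moved over time without treatment. Knock-out controls averaged 6.42 ± 0.53 (SD, n = 5) on day 1 and 8.32 ± 1.47 (SD, n = 3) on day 7. The averages were 8.32 ± 0.94 (SD, n = 4) on day 14 and 9.46 ± 1.33 (SD, n = 5) on day 28, the highest of the 6. They were 7.78 ± 1.32 (SD, n = 5) on day 91 and 7.54 ± 0.80 (SD, n = 5) at the end. An F test over these days passed (adjusted p = 0.013), against 0.32 in human CAR/PXR and 0.842 in wild-type controls. It called 6.81% of genes in human CAR/PXR, 9.84% in knock-out and 12.2% in wild-type controls. With only knock-out controls fitted its adjusted p was 0.0687. Neither Gadd45b nor Gadd45a passed this test in any genotype (adjusted p = 0.123 at least). Over all days, knock-out controls exceeded wild-type controls by 1.24 ± 0.29 (SE, adjusted p = 0.000451) and human CAR/PXR controls exceeded them by 0.66 ± 0.28 (SE, adjusted p = 0.0633), the second not called. Of all genes 22.4% and 28% were called in these comparisons. The human CAR/PXR excess passed with only the compared arrays fitted (adjusted p = 0.0446). It also passed without control animals 1002 and 5002 (0.76, adjusted p = 0.0325), 1006 and 5006 (0.74, 0.0438), 1014 and 5013 (0.76, 0.0338), 1017 and 5015 (0.78, 0.0293), 1020 and 5018 (0.76, 0.0316), 1027 and 5025 (0.76, 0.034) or 5030 (0.72, 0.0419).

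**Figure D4:**
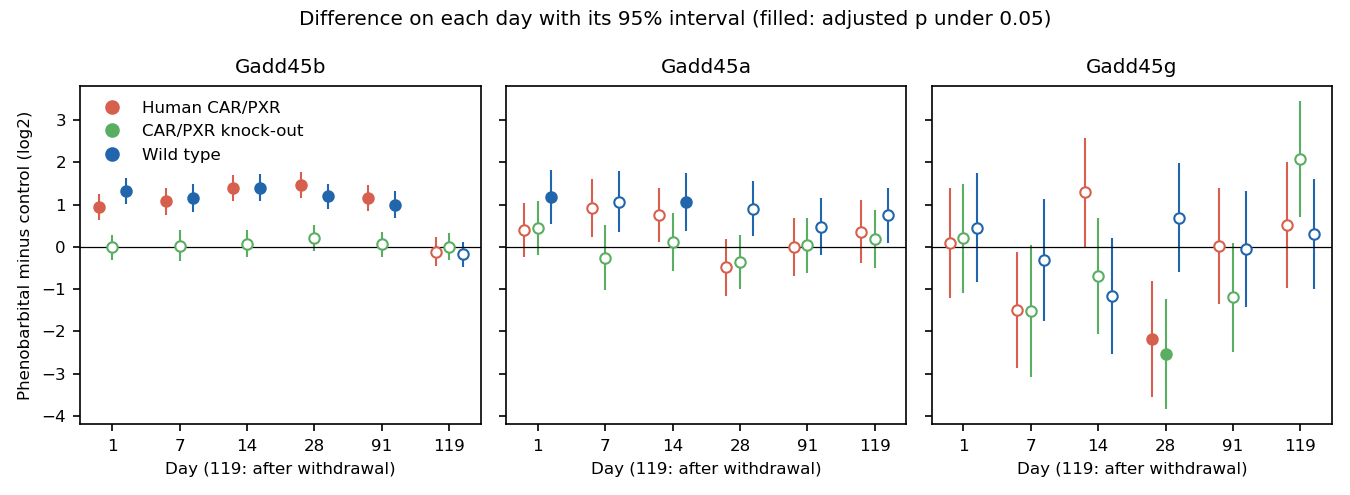
Phenobarbital minus control difference (log2) on each day for the 3 genes, by genotype, with 95% intervals from the fit. Filled points passed at an adjusted p under 0.05. Gadd45b passes on all 5 dosing days in human CAR/PXR and wild-type livers, Gadd45a on days 1 and 14 in wild type, and Gadd45g, with the widest intervals, on day 28 in human CAR/PXR and knock-out livers.

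The 3 genes also differed in how they varied between animals of the same group. After each group's mean was subtracted, Gadd45a had r = 0.00 with Gadd45b and r = 0.10 with Gadd45g over 166 samples. Gadd45b and Gadd45g ran opposite to each other, with r = −0.43 over all samples. It was −0.63 in human CAR/PXR, −0.47 in knock-out and −0.19 in wild-type livers. Where Gadd45b was raised, in the 47 treated human CAR/PXR and wild-type livers of the dosing days, r was −0.54. In their 46 controls it was −0.42, in the 46 knock-out livers of those days −0.48, and in the 27 livers of day 119 −0.35. In these sets the opposite course was present at both the high and the low Gadd45b level. The control set pools human CAR/PXR and wild-type livers, and in its wild-type livers alone the opposite course was not seen. Points of 1 group share a collection day and a fitted mean, and these values are descriptions without a test.

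**Figure D5:**
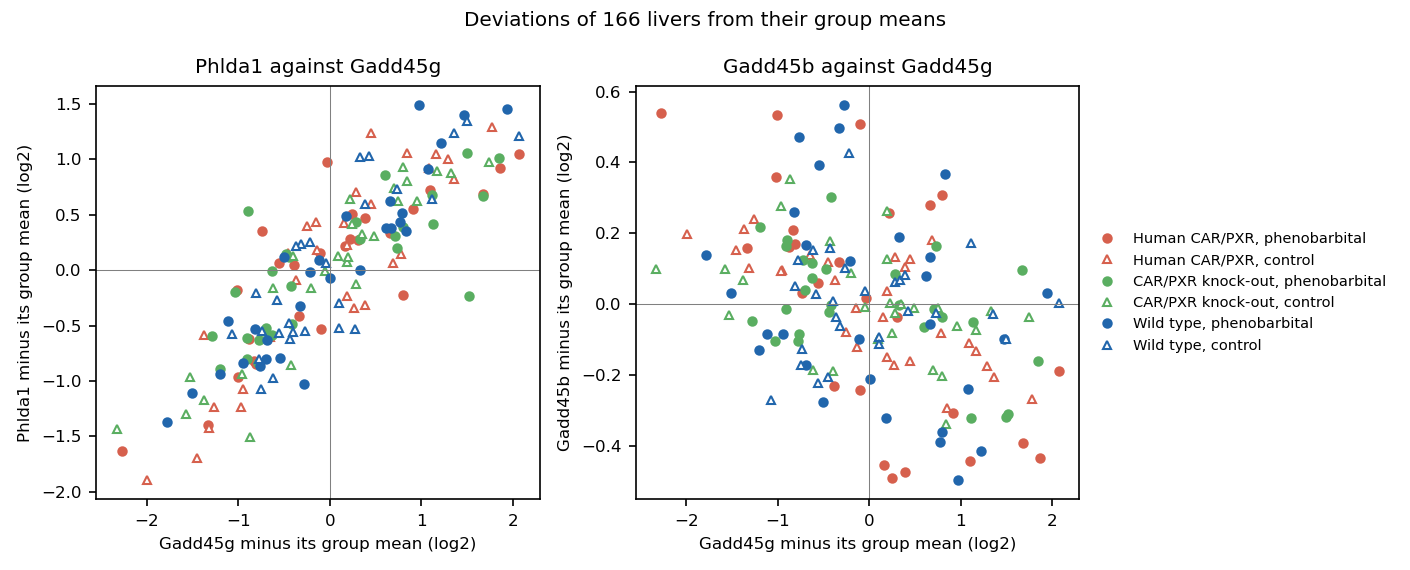
Deviations of 166 livers from their group means (log2): Phlda1 (left) and Gadd45b (right) against Gadd45g. Colours give the genotype, filled circles phenobarbital and open triangles controls. Phlda1 goes with Gadd45g (r = 0.86) and Gadd45b goes against it (r = −0.43).

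The genes most like Gadd45g between animals were Phlda1 (r = 0.86), a pleckstrin homology-like domain protein, the forkhead factor gene Foxq1 (0.86), Myc (0.84), the cytokine feedback inhibitor Socs3 (0.82) and the liver forkhead factor Foxa2 (0.73). Over the 36 group means the closest were Socs3 (0.88), Foxq1 (0.87), the autophagy gene Vmp1 (0.85), Phlda1 (0.80) and Gdap10 (0.80). In knock-out livers of day 28, Myc averaged 5.80 ± 0.84 in 5 treated livers and 7.34 ± 1.48 in 5 controls (SD), a called difference of −1.54 ± 0.48 (SE, adjusted p = 0.0416). This call was lost without animals 4019 and 4024 (−1.45, adjusted p = 0.0876) and without the 29 acinar-high samples (−1.74, 0.0533). The day 28 differences of Foxq1 (−1.22, adjusted p = 0.105), Socs3 (−0.96, 0.263) and Phlda1 (−0.58, 0.622) did not pass. After the recovery, Socs3 was 9.73 ± 1.24 (SD, n = 4) in formerly treated knock-out livers and 7.46 ± 0.52 (SD, n = 5) in controls, which was called (2.27 ± 0.51, SE, adjusted p = 0.0253). Without the acinar-high samples it was 2.28 (adjusted p = 0.0819). Myc (1.13, adjusted p = 0.624), Phlda1 (0.89, 0.82) and Foxq1 (0.46, 0.93) were not called there.

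For Gadd45b the closest genes over the 36 group means were the glucuronosyltransferase Ugt2b34 (r = 0.97), the phosphatase inhibitor Arpp19 (0.95), the carboxylesterase Ces2a (0.95), Cyp2c65 (0.95), Cyp2b10 (0.94), Cyb5a (0.93), the secreted matrix protein gene Ccn4 (0.93) and the repair helicase gene Ercc3 (0.93). Their mean differences differed in size. Ccn4, for example, stood at 1.12 in human CAR/PXR, 0.10 in knock-out and 1.40 in wild-type livers, and Ercc3 at 0.47, 0.04 and 0.37. Between animals of a group none of these was among the 5 closest. Those were the T-box factor Tbx3 (0.47), the NF-kB inhibitor Nfkbia (0.44), Klhl25 (0.39), the interferon-regulated factor Irf1 (0.38) and Sall1 (0.38). For Gadd45a the closest over group means were Gas2l3 (0.78), Creld1 (0.76), the flagellin receptor Tlr5 (0.75), Tmem184b (0.74) and the epoxide hydrolase Ephx1 (0.72). Between animals they were Rnf186 (0.66), the Wnt receptor Fzd7 (0.63), 0610040J01Rik (0.51), the clock-output factor Hlf (0.50) and the calcium sensor Stim2 (0.50). These correlations are descriptions, since the 36 means share genotypes and days.

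At the RNA level the tested genes of the pathway moved little beside Gadd45b in human CAR/PXR and wild-type livers. Map2k7, named above as held back by the Gadd45b protein, was not among the genes with a single symbol and was not tested. Kinase activity was not measured. Among all genes, the percentage called higher over the dosing days was 14.9 in human CAR/PXR, 8.64 in knock-out and 11.8 in wild-type livers, and the percentage called lower was 17.5, 11 and 19.7. The median difference of all genes was 0.00, 0.01 and −0.01. Of 11 tested binding partners and effector kinases, in human CAR/PXR livers 3 rose and 1 fell, in knock-out livers 0 rose and 3 fell and in wild-type livers 3 rose and 3 fell, and their medians were −0.02, 0.00 and −0.03. Those that rose were Cdk1 (0.33 ± 0.07 in human CAR/PXR and 0.22 ± 0.07 in wild-type livers), Pcna (0.14 ± 0.04 and 0.21 ± 0.04) and Mapk8, which encodes a JNK kinase (0.11 ± 0.03 and 0.07 ± 0.03). In knock-out livers Pcna fell by 0.10 and Mapk8 by 0.08. Cdkn1a, the gene of p21, fell in wild-type livers (−0.33 ± 0.10). The sizes of the changes named here were all below that of Gadd45b in human CAR/PXR and wild-type livers. Without the acinar-high samples, 3 rose and 0 fell in human CAR/PXR, 0 rose and 1 fell in knock-out, and 1 rose and 2 fell in wild-type livers. Without animals 4019 and 4024, 2 fell in knock-out livers.

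Of 8 tested demethylation and repair partners, in human CAR/PXR livers 1 rose and 3 fell, in knock-out livers 0 rose and 1 fell and in wild-type livers 0 rose and 2 fell (medians −0.03, 0.00 and 0.01). The endonuclease gene Ercc5 fell in human CAR/PXR (−0.11 ± 0.03) and wild-type livers (−0.15 ± 0.03), and Ing1, whose protein guides Gadd45a to methylated promoters, fell in all 3 (−0.13 ± 0.04, −0.13 ± 0.04 and −0.12 ± 0.04 in human CAR/PXR, knock-out and wild type). Of 10 tested transcription factor genes that act on the family, in human CAR/PXR livers 0 rose and 6 fell, in knock-out livers 0 rose and 2 fell and in wild-type livers 0 rose and 6 fell (medians −0.08, −0.06 and −0.14). Ppara, the fatty acid receptor, fell the most among those called, by 0.53 in human CAR/PXR, 0.28 in knock-out and 0.50 in wild-type livers. Foxo3 fell in human CAR/PXR (−0.19 ± 0.05) and wild-type livers (−0.19 ± 0.05). Rela, an NF-kB subunit, fell by 0.06 and 0.12, and Smad4, which carries TGF-beta signals, by 0.13 in human CAR/PXR, 0.13 in knock-out and 0.14 in wild-type livers.

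Of 14 other p53 targets tested, in human CAR/PXR livers 2 rose and 2 fell, in knock-out livers 2 rose and 1 fell and in wild-type livers 1 rose and 4 fell (medians 0.00, 0.00 and −0.06). Mdm2, the p53 ubiquitin ligase, rose by 0.12 ± 0.03 in human CAR/PXR and 0.20 ± 0.03 in wild-type livers, while Perp, a desmosome protein, fell (−0.37 ± 0.03 and −0.35 ± 0.03). Of 15 immediate early and NF-kB response genes, in human CAR/PXR livers 0 rose and 6 fell, in knock-out livers 2 rose and 4 fell and in wild-type livers 3 rose and 3 fell (medians −0.18, −0.04 and −0.05). Myc fell in knock-out livers (−0.85 ± 0.23) and rose in wild-type livers (0.61 ± 0.23), Jun rose in wild-type livers (0.35 ± 0.13), and Egr1 (−0.83 ± 0.23) and Ier2 (−0.35 ± 0.06) fell in human CAR/PXR livers. Nfkbia fell in all 3 genotypes, by 0.28 in human CAR/PXR, 0.22 in knock-out and 0.33 in wild-type livers. Without the acinar-high samples this list had 0 that rose and 6 that fell in human CAR/PXR, 0 and 2 in knock-out, and 0 and 1 in wild-type livers, and the p53 targets had 1 that rose and 1 that fell in wild-type livers. No test of a list against other genes was run.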

How the data were processed

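RNA from powdered livers was hybridised to Affymetrix mouse arrays, and the authors deposited log2 values made by RMA, per the submitters' processing notes, in 1 table of 167 arrays and 45101 probe sets. Array medians lay between 5.146 and 5.231. Depth has no meaning for arrays, and the number of animals, 3 to 5 a group, limits the precision. The labels also give lower doses and another starting age (8 weeks), which were not used here.

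Here, 34958 probe sets with 1 symbol were reduced to 18194 genes by the highest mean, and 12622 genes above their own array's median in at least 3 samples were tested. limma 3.58.1 in R 4.3.3 fitted 36 group means to 166 samples, with two-sided moderated tests and Benjamini-Hochberg adjustment over all genes within a contrast, called under 0.05. Animals of a group were taken as replicates. Arrays were nearly identical where the SD of their log2 difference was under 0.1. The scripts were tested on simulated data. Genes like a member were the 5 (8 for Gadd45b) with the highest Pearson r over group means, and the 5 with the highest r over deviations from them. Alternatives were quantile normalization, other filters, only the compared arrays, a trended robust prior, array weights and the other probe sets. The near-identical arrays were also kept or left out, and each animal was left out in turn. Nearly every refit of this last kind left out an animal of each genotype at once. Only those in the compared groups are named. The members and gene lists were chosen with earlier results of these data known. Promoters came from RefSeq (GRCm38.p6). Figures were drawn with matplotlib 3.10.9.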

Additional observations from a re-analysis of the deposited data

Results flagged for a closer look

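Single livers stood apart from the rest of their group in 9 of 102 group tests of the 3 genes, where chance gives about 1 in 20. For Gadd45a these were treated human CAR/PXR animal 6017 on day 28 (6.36, the others 5.90 to 6.03) and treated knock-out animal 4011 on day 14 (7.44, the others 6.11 to 6.46). They were also knock-out control 3004 on day 1 (5.34, the others 5.97 to 6.14) and wild-type control 1020 on day 28 (4.60, the others 5.83 to 6.30). For Gadd45g they were treated human CAR/PXR animals 6012 on day 14 (6.00, the others 8.57 to 9.18) and 6019 on day 28 (7.30, the others 5.64 to 6.10). The remaining ones were knock-out control 3017 on day 28 (7.13, the others 9.74 to 10.41) and wild-type controls 1002 on day 1 (8.84, the others 6.03 to 6.45) and 1017 on day 28 (7.84, the others 5.78 to 6.13). No Gadd45b group held such a liver.

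Of 18 tests of a difference between genotypes or between days 119 and 91, 5 passed. Of all genes, 13.4% were called for wild type minus knock-out, 10.1% for human CAR/PXR minus knock-out and 1.88% for human CAR/PXR minus wild type. For day 119 minus day 91 the shares were 1.56% in human CAR/PXR, 0.0555% in knock-out and 0.666% in wild-type livers. The Gadd45b response differed from the knock-out one by 1.14 in human CAR/PXR and by 1.14 in wild-type livers, and the Gadd45a response by 0.94 in wild-type livers. The Gadd45b difference of day 119 minus that of day 91 was −1.27 in human CAR/PXR and −1.17 in wild-type livers.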

How the results depend on the processing

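A called value that turned its direction was counted as changed. Of 854 values recomputed under alternatives, 824 kept their side of the threshold, and of 1819 recomputed with animals left out, 1789 did so. Among these, 26 and 84 uncalled values changed sign. With the dimmest Gadd45b probe set the mean wild-type difference was 0.108 and no longer passed, and neither did the differences from knock-out, 0.05724 for human CAR/PXR and 0.05 for wild type. The day 7 human CAR/PXR difference was then −0.05961, and that of human CAR/PXR minus wild-type controls −0.09723, both with the opposite sign. The human CAR/PXR minus wild-type response of Gadd45a passed with array weights (−0.6807, adjusted p = 0.0397) and lay between −0.7332 and −0.5808 when animals were left out. The wild-type minus knock-out response of Gadd45g lay between 0.9469 and 1.248 when animals were left out. The causes were not tested. Leaving out the 29 samples with high acinar markers was chosen after seeing the data. Without animals 4019 and 4024 no call on the 3 genes changed. No paired analysis was possible because animal numbers are unique and groups share none. The mean counts of called genes moved by less than 1.5 times under every alternative run. Groups of 3 to 5 arrays limit single days most for Gadd45g, which varies most.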

Other observations

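Among 14 tested genes of the fasting and glucocorticoid response, 5 fell and 1 rose over the dosing days in human CAR/PXR livers, 7 fell and 1 rose in knock-out livers, and 6 fell and 1 rose in wild-type livers, with medians of −0.19, −0.35 and −0.24. Of all genes 17.5%, 11% and 19.7% were called lower, and 14.9%, 8.64% and 11.8% higher. The gene that rose was Pdk4 (0.57) in human CAR/PXR, Tat (0.30) in knock-out and Sgk1 (0.32) in wild-type livers. Angptl4, a fasting-induced lipase inhibitor, fell by 0.93 in human CAR/PXR, 0.90 in knock-out and 1.29 in wild-type livers. Pck1, the rate-limiting enzyme of gluconeogenesis, fell by 0.87, 0.51 and 0.55 in the same order, and the clock gene Per1 by 0.50, 0.47 and 0.29. These changes were called in knock-out livers too, unlike that of Gadd45b. For these 3 genes, wild type minus knock-out was −0.39 for Angptl4, −0.04 for Pck1 and 0.17 for Per1 (adjusted p = 0.239, 0.927 and 0.428), and human CAR/PXR minus wild type did not pass either (adjusted p = 0.472, 0.502 and 0.488). The mean of this list correlated with the deviations of Gadd45b at r = 0.17, of Gadd45a at −0.27 and of Gadd45g at −0.06.

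Beside the B and plasma and stellate cell markers given with Gadd45b, markers of other liver cells were counted. Of all genes 17.5%, 11% and 19.7% were called lower, and 14.9%, 8.64% and 11.8% higher, in human CAR/PXR, knock-out and wild-type livers. Of 8 hepatocyte markers 3 fell in human CAR/PXR, 1 rose in knock-out (0 without animals 4019 and 4024) and 4 fell in wild-type livers. The urea cycle gene Ass1 was at 0.43 in knock-out and −0.48 in wild-type livers. The other falls were smaller, with Apoa1 at −0.09, Alb at −0.03 and Ttr at −0.03 in wild-type livers. In human CAR/PXR livers Apoa1 was at −0.17, Hnf4a at −0.10 and Alb at −0.02. Of 8 Kupffer cell markers 1 fell in wild-type livers (Marco, −0.45), of 7 endothelial and 4 neutrophil markers 1 each fell in human CAR/PXR livers (Kdr, −0.11, and S100a8, −0.27), and of 8 acinar markers 0 passed in any genotype by limma. Of 3 cholangiocyte markers 1, Epcam, rose in human CAR/PXR (0.15) and knock-out livers (0.13), and of 3 T and NK cell markers 1 rose in human CAR/PXR livers (Cd8a, 0.11). The part of these changes in the Gadd45 results was not tested.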
